A study of Mus musculus with 2 samples.

Results

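The 9 genes described here encode the receptors for prolactin (Prlr), growth hormone (Ghr), leptin (Lepr) and adiponectin (Adipor1, Adipor2), the transcription factors Stat5a and Stat5b, and the feedback inhibitors Cish and Socs2. They were chosen by name, as the probes for mouse transcripts whose RefSeq accession maps to one of the 9 symbols; the rule uses no measured value, though earlier results of these data were known when it was set. On the arrays they have 14 probes on 23 spots, out of 41171 probes on 43376 spots and 16533 named genes in all. RNA of 2 groups of male C57BL/6J mice was compared. The mice were 11 weeks old and weighed 26 to 28 g, and after 1 week on standard chow they ate their test diet for 4 weeks. In the ASX group the powdered chow held 0.5% (w/w) of a powder with 2% astaxanthin, a carotenoid from the alga Haematococcus pluvialis. In the control group it held 0% of that powder, and placebo powder was given. Hippocampal RNA of both groups was hybridised together on 2 two-colour arrays, with ASX in Cy5 on array 1 and in Cy3 on array 2. Each array is titled with 4 mice, the design text gives 4 replicates per diet, and no label says how their RNA was combined. Both arrays are handled here as 1 replicate, a technical dye swap of 1 RNA pair, which leaves no test of the diet, and an SD below is the spread between the arrays.

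Prolactin and growth hormone are secreted by the pituitary, and their receptors belong to the class I cytokine receptor family. Hormone binding activates the kinase JAK2, which phosphorylates STAT5. STAT5 then switches on genes that include Cish and Socs2, whose products bind the activated receptors and damp the signal. The leptin receptor is of the same class and signals mostly through STAT3. The adiponectin receptors are of another kind: they span the membrane 7 times and are linked to AMP-activated protein kinase and PPAR-alpha. In the mouse brain, prolactin receptor RNA is well known from the choroid plexus and leptin receptor RNA from hypothalamic neurons.

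A gene was measured when its probe stood well above background in each RNA and on each array, and its value was taken from its brightest such probe. All 9 hippocampal neuron markers were measured. Between 75.8% and 78.2% of spots stood above background, depending on RNA and array. Over all 23603 measured genes and transcripts, the median log2 ratio of ASX over control was -0.0042, and over the 13318 of them with a gene symbol it was -0.019.

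None of the measured genes among the 9 differed by much between the RNAs. Of the 9 genes 8 were measured, with 12 of their 14 probes. Of the 8, 0 were at least 1.5-fold higher in ASX RNA on each array, as 0.0636% of all measured genes were, and 0 were at least 1.5-fold lower, as 0.0212% were. At 1.2-fold the counts were also 0 and 0, against 1.44% and 0.314% of all genes. Among measured genes with a symbol, as all members are, the shares were 0.0300% and 0.0300% at 1.5-fold, and 0.233% and 0.330% at 1.2-fold. The median log2 ratio of the 8 was -0.023, with single genes between -0.18 for Adipor2 and 0.038 for Socs2. On single arrays the median was -0.030 and 0.00074. In 6 of the 8 the arrays had opposite signs, as in 12930 of all 23603 measured genes and 7901 of the 13318 with a symbol. Ghr alone was above 0 on both, where 22.2% of all genes and 14.3% of those with a symbol were. Cish alone was below 0 on both, where 23.0% and 26.4% were. Counts of signs in the gene lists below are to be read beside these shares.

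**Figure D1:**
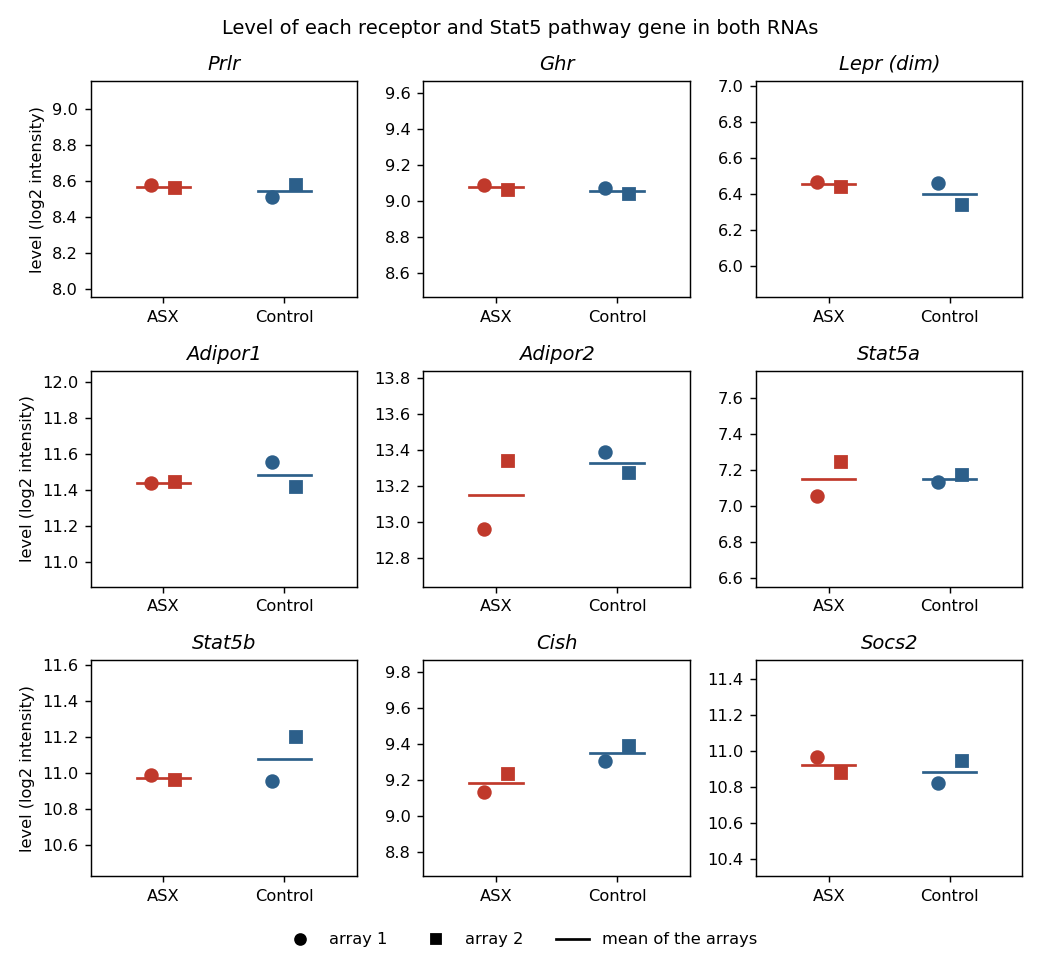
Level of each gene (log2 intensity, vertical axis, 1.2 log2 units in every panel) in ASX RNA (red) and control RNA (blue), from its brightest measured probe, or for Lepr its only probe, which was dim. Circles are array 1, squares array 2 and bars the mean of the arrays; Cish is the one gene whose ASX points, 9.13 and 9.23, both lie below its control points, 9.31 and 9.39.

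Among the receptors, Prlr, which binds prolactin, had levels of 8.58 and 8.56 in ASX RNA on arrays 1 and 2, against 8.51 and 8.58 in control RNA (log2 intensity, after scaling between arrays). The groups overlapped. The log2 ratios of Prlr were 0.067 and -0.018, which is 1.02-fold in the mean, and 79.0% of all measured genes lay as far from 0 in the mean. Since Prlr is known as a choroid plexus transcript, other markers of that tissue are given beside it. Of 15 listed, 13 were measured and the other 2, Kcnj13 and Slc4a5, were not matched to a probe. Their summed intensity was 67449.8 and 66523.5 in ASX RNA, against 65779.1 and 70196.2 in control RNA, and 56.7% of it came from Enpp2, with ratios of 0.087 and -0.12. Without Enpp2 the sum was 27880.9 and 29967.5 in ASX RNA, against 28529.9 and 30401.5 in control RNA. The groups overlapped in both sums. The 13 had a median log2 ratio of -0.069, with 2 above 0 on both arrays and 8 below. Calml4 and Trpv4 had the ratios of largest size with 1 sign on both arrays, with means of -0.31 and -0.27. The part of choroid plexus RNA in the Prlr value was not tested. In bulk RNA, fewer cells of a type and less RNA per cell cannot be told apart.

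Ghr, the growth hormone receptor gene, had levels of 9.09 and 9.06 in ASX RNA, against 9.07 and 9.04 in control RNA. Each array had the same ratio, 0.020, a mean fold of 1.01 that was closer to 0 than in 82.6% of genes. This probe carries the accession NM_010284. A pair of probes for the accession NM_001048178, another Ghr transcript, had 0.077 and -0.21, and -0.11 and 0.075, each with opposite signs on the arrays. The transcripts therefore gave no common direction.

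Lepr, the leptin receptor gene, was the member that did not pass as measured. Its one probe was printed 10 times on each array and was dim: 10 spots of ASX RNA were well above background on array 1 and 9 on array 2, against 10 and 4 spots of control RNA. The levels were 6.47 and 6.44 in ASX RNA, against 6.46 and 6.34 in control RNA, and the groups overlapped. Its log2 ratio was 0.0041 on array 1, where single spots ran from -0.095 to 0.21 and 5 of 10 lay below 0. On array 2 it was 0.098, with spots from -0.091 to 0.20 and 1 of 10 below 0. The SD over spots was 0.096 and 0.095. Averaged over both arrays, single spots had an SD of 0.043, against a median of 0.034 over the 200 measured probes with 10 spots. In those averages 1 of 10 spots lay below 0. The mean of 0.051 was smaller than the SD between the arrays, 0.067. Leprot and Leprotl1, genes of small membrane proteins that regulate leptin receptor traffic, had means of -0.020 and -0.028.

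**Figure D2:**
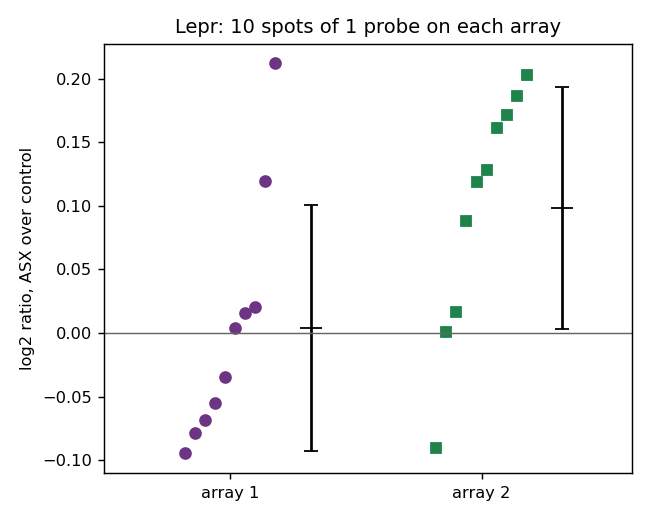
Log2 ratio of ASX over control (vertical axis) at each of the 10 spots of the Lepr probe on array 1 (circles) and array 2 (squares), sorted by value; black bars are the mean ± SD over spots. On array 1 the spots lie on both sides of 0, 5 of them below it, and on array 2 just 1 lies below it.

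Adipor1 and Adipor2 encode the adiponectin receptors and were each read by 2 measured probes. For Adipor1 the levels were 11.44 and 11.44 in ASX RNA, against 11.56 and 11.42 in control RNA. These groups overlapped. Its ratios were -0.11 and 0.027 for the brighter probe and -0.038 and -0.093 for the other. For Adipor2 the levels were 12.97 and 13.34 in ASX RNA, against 13.39 and 13.27 in control RNA; the ASX value of array 1 was low and the other 3 were close. Its ratio of -0.42 on array 1 was the largest in size of any measured probe of the members, and on array 2 it was 0.070, so the mean of -0.18 had an SD of 0.35. The other Adipor2 probe had -0.059 and -0.014, with ASX levels of 9.34 and 9.36 below both control levels, 9.40 and 9.38. Both genes had means below 0 on both probes, by less than the spread between arrays for the brighter probe of each.

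Of 11 listed genes that act with the adiponectin receptors, all 11 were measured, 0 differed by 1.5-fold and the median was 0.019. Appl1, the gene of an adaptor that binds them, had a mean of 0.14 from 0.0087 and 0.28, while its other probe had -0.012 and 0.050. Cdh13, which encodes T-cadherin, another adiponectin-binding protein, had -0.13 and -0.15. The 4 genes of AMP-activated protein kinase subunits with ratios of opposite sign were Prkaa1, Prkaa2, Prkab1 and Prkag1; Prkab2 and Prkag2 were below 0 on both arrays, with means of -0.086 and -0.031. All 9 other genes of the PAQR family, to which the adiponectin receptors belong, were measured, with a median of -0.041 and 0 past 1.5-fold. Paqr7, a membrane progestin receptor gene, had a mean of -0.17 and Mmd one of 0.15.

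Stat5a and Stat5b encode the transcription factors that prolactin and growth hormone receptors activate. Stat5a had levels of 7.05 and 7.24 in ASX RNA, against 7.13 and 7.17 in control RNA, with ratios of -0.079 and 0.077 that cancelled to a mean of -0.0013. Stat5b had levels of 10.99 and 10.96 in ASX RNA, against 10.95 and 11.20 in control RNA. The ratios of Stat5b were 0.033 and -0.24, a mean of -0.10 with an SD of 0.19. Both genes overlapped between the groups. Another Stat5b probe was not well above background for ASX RNA on either array, and for control RNA was so on array 1 alone; its log2 ratios were -0.068 and -0.43, a measured ratio at background and not a bound. Stat5a and Stat5b are close paralogs, and whether their probes cross-hybridise was not tested.

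The feedback genes showed no difference of 1.2-fold on each array either. Cish, which encodes a STAT5-induced inhibitor of STAT5 signalling, had levels of 9.13 and 9.23 in ASX RNA, against 9.31 and 9.39 in control RNA. Both ASX values lay below both control values. Its log2 ratios on the arrays were -0.17 and -0.16, with a mean of -0.17 and an SD of 0.0092, which is a ratio of 0.891. By the log ratios of the scanner software they were -0.27 and -0.086, so the closeness of the arrays depended on the processing. Cish was the 1 gene of 8 whose groups did not overlap on the probe used. Among the probes not used, ASX also lay wholly below control for the other Adipor2 probe and the dim Stat5b probe. ASX lay wholly below control in 13.9% of all measured genes and 16.1% of those with a symbol, and wholly above in 15.0% and 8.18%. Of all measured genes, 4.05% had a lower mean than Cish, and 12.0% lay as far from 0. Socs2, which encodes a negative regulator of growth hormone signalling, had 10.96 and 10.88 in ASX RNA, against 10.82 and 10.94 in control RNA. The Socs2 groups overlapped, with ratios of 0.14 and -0.066 and a mean of 0.038.

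**Figure D3:**
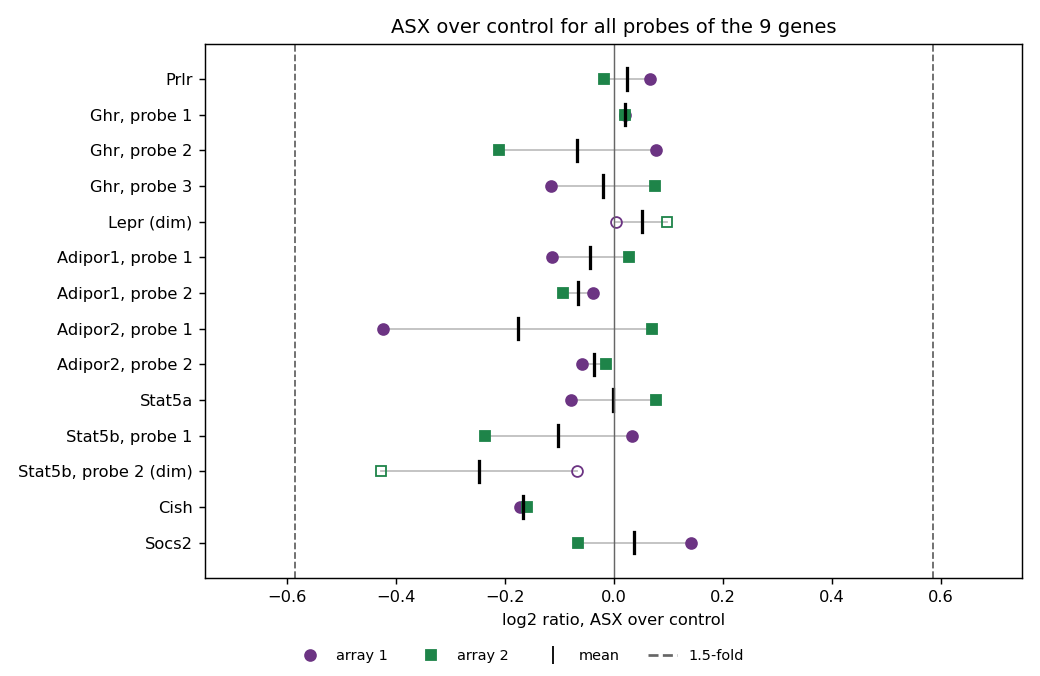
Log2 ratio of ASX over control (horizontal axis) for each of the 14 probes of the 9 genes, brightest probe of a gene on top; circles are array 1, squares array 2, short bars their mean, and open symbols the 2 dim probes. Every point lies inside the dashed lines of 1.5-fold, and the Cish points, -0.17 and -0.16, lie together below 0.

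STAT5 binds DNA at the palindrome TTCNNNGAA, which reads the same on both strands. This motif was looked for in the RefSeq promoter windows of GRCm38.p6, each from 250 bases before a gene's start to 50 after it; 8 of the 9 genes had 15 windows in that table, and Socs2 was not matched. The motif stood in 8.30% of all 32851 windows and in 2 of the 15. The Cish window held it 2 times, as 0.457% of all windows held 2 or more, at positions 1 and 12 counted from the start. Of the 3 Prlr windows 1 held it, at position -110. The 30 bases around the matches are shown for both genes that had one, with the motif in capitals, on the plus strand. They lie at chr9:107296654-107296683 for Cish and chr15:10223785-10223814 for Prlr. A link between the motif and the RNA levels was not tested. A match is a description of these letters and not a measured binding site.
Cish: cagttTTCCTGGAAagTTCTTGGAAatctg
Prlr: ggcaaaatgagTTCTAGGAAtaagggatat

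The prolactin and growth hormone genes differed far more than the genes of their receptors. Prl had levels of 8.25 and 8.27 in ASX RNA, against 6.53 and 6.74 in control RNA. Gh had 8.21 and 7.96 in ASX RNA, against 6.55 and 7.04 in control RNA. Both were past 1.5-fold on each array, with mean folds of 3.08 for Prl and 2.44 for Gh, beside 1.02 for Prlr and 1.01 for Ghr. The ligand folds rest on dim control signals, not far above the dim Lepr probe at 6.46 and 6.34. Control levels of the receptors were higher, 8.51 and 8.58 for Prlr and 9.07 and 9.04 for Ghr. The difference between ligand and receptor was not tested. Lep, the leptin gene, had 0.20 and -0.15. Adipoq, the adiponectin gene, was not well above background for either RNA on either array. Of the 7 listed ligand genes 5 were measured, 2 passed upward and 0 downward. Of the 16 listed pituitary and hypothalamic markers 13 were measured, Prl and Gh among them; 5 were above 0 on both arrays, 2 below and 6 had opposite signs. Cga, the common subunit gene of the glycoprotein hormones, had 0.58 on both arrays, and Pomc 0.38 and 0.53, while the pituitary hormone genes Lhb and Fshb had 0.20 and -0.045, and 0.16 and -0.15; these 4 were singled out after their values were seen. Tshb, Pou1f1 and Pitx1 were not well above background. The summed intensity of the 13 was 52304.5 and 44605.3 in ASX RNA, against 47710.3 and 48234.5 in control RNA, but 92.9% of it came from Sst, which hippocampal interneurons also express. Without Sst it was 3715.06 and 3694.75 in ASX RNA, against 2983.98 and 3237.29 in control RNA, and the groups did not overlap. That sum still holds Prl and Gh, so it is not a measure apart from their values. No sum without them was made. Trh, a hypothalamic hormone gene on the same list, was lower, with -1.28 and -1.10. Markers of the meninges were also above 0: 11 of 12 were measured, all 11 had means above 0, 7 were above 0 on both arrays and 0 below, and the median was 0.18. Their summed intensity was 36153.2 and 37439.9 in ASX RNA, against 35963.7 and 33458.3 in control RNA. Of this sum 45.1% came from Dcn, with ratios of -0.16 and 0.17. Without Dcn it was 20561.1 and 20800.9 in ASX RNA, against 18513.9 and 18654.4 in control RNA. Bgn and Aldh1a2 had means of 0.28 and 0.25, and none passed 1.5-fold. The part of pituitary, hypothalamic or meningeal RNA in the ligand values was not tested.

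Between receptor and target, all 4 JAK kinase genes were measured, 0 passed 1.5-fold and the median log2 ratio was -0.021. Each of the 4 had opposite signs on the arrays. Jak2, the kinase gene of these receptors, had -0.15 and 0.049. The 5 other STAT genes had a median of -0.054; Stat3, on which leptin signalling depends, had -0.13 and -0.088 as the mean of 10 spots each. Of the 6 other SOCS genes, with a median of -0.039, Socs3, the inhibitor of leptin signalling, had -0.23 and -0.034, while Socs5 had 0.079 and 0.076. Phosphatase and adaptor genes, 14 of 15 measured, had a median of -0.081 and 6 below 0 on both arrays. Ptpn6, which encodes the phosphatase SHP-1, had a mean of -0.17, but another of its probes had a mean of 0.083. Pias4, which encodes an inhibitor of STAT proteins, had -0.17 on both arrays. None of these passed 1.5-fold.

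Of 9 listed STAT5 targets, 7 were measured, and Igfals and Il2ra were not well above background. Their median log2 ratio was -0.13, with -0.10 on array 1 and -0.13 on array 2. The median was -0.0042 for all genes and -0.019 for those with a symbol. All 7 had means below 0, from -0.18 to -0.031, and with median centring 6 of the 7 did. Of all measured genes, 51.4% had a mean lower than -0.0013. Cish and Socs2, members that STAT5 also switches on, are not on this list and had means of -0.17 and 0.038. On both arrays 3 of the 7 were below 0, as 23.0% of all measured genes and 26.4% of those with a symbol were. Above 0 on both were 0, against 22.2% and 14.3%, and 0 passed 1.5-fold. Igfbp3, which encodes the carrier of circulating IGF-I, had -0.27 and -0.093, and Pim1, a survival kinase gene, had -0.10 and -0.17. Igf1, the classical growth hormone target, had -0.098 and 0.036. Relative to the median of all genes, the list median lay between -0.17 and -0.074 over the 9 settings with both arrays.

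**Figure D4:**
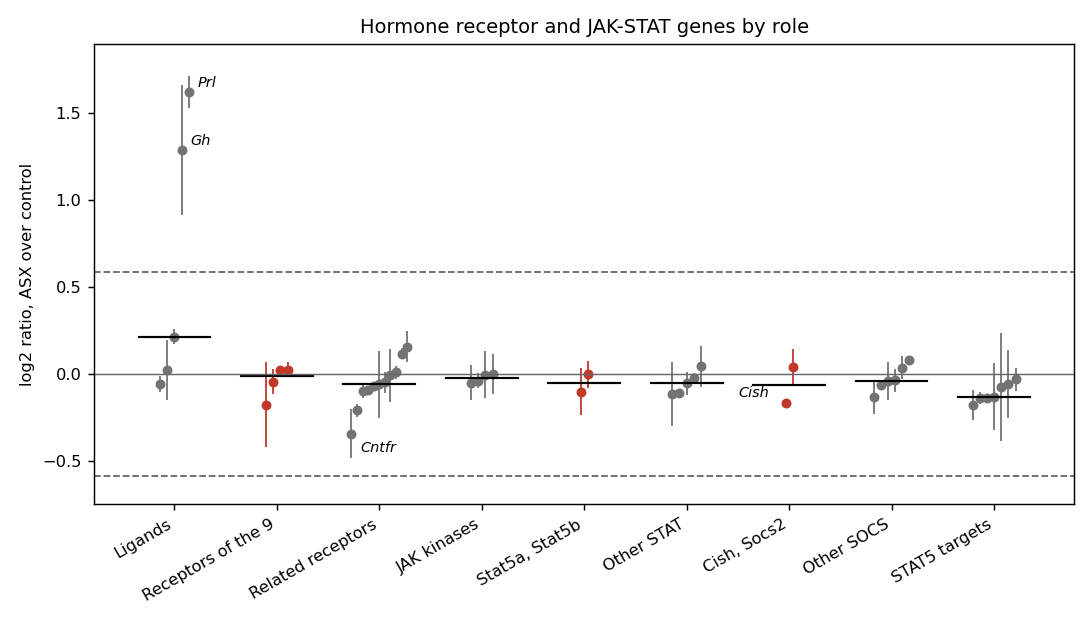
Log2 ratio of ASX over control (vertical axis) for measured genes grouped by role, from ligands on the left to STAT5 targets on the right. Dots are the mean of both arrays, thin lines join the arrays, black bars are group medians, dashed lines 1.5-fold and red marks the 8 measured genes of the 9; Prl at 1.62 and Gh at 1.29 stand alone above the upper line.

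Of 13 listed genes of related class I cytokine receptors 11 were measured, with a median of -0.061, 2 above 0 on both arrays and 5 below. Cntfr, the receptor gene for ciliary neurotrophic factor, had -0.20 and -0.48, and Il4ra, a subunit gene of the interleukin-4 receptor, had -0.17 and -0.25. Each was read by 1 probe, and neither passed 1.5-fold.

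Markers of cells that carry these receptors or surround them showed no gene past 1.5-fold. The 9 hippocampal neuron markers had a median of 0.029, with 2 above 0 on both arrays, Zbtb20 at a mean of 0.28 and Calb1 at 0.045. The 9 endothelial markers had a median of -0.053, and 3 were below 0 on both arrays. Means above 0 were seen for 2 of the 9, Vwf at 0.15 and Slco1a4 at 0.11. Another Vwf probe had 0.098 and -0.057. The 7 astrocyte markers had a median of -0.042. Slc1a2, at 0.22, was the 1 with a mean above 0 and the 1 with the same sign on both arrays. Another Slc1a2 probe had 0.28 and -0.041.

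The direction of the smallest ratios depended on the scaling. Over 9 settings with both arrays, Adipor1, Adipor2, Stat5b and Cish were below 0 in all 9. Prlr was below 0 in 3, Ghr in 4, Socs2 in 2 and Stat5a in 6. Centring on spike-in RNAs moved the median of all genes to -0.31 and centring on each array's median moved it to -0.10. Both of these settings leave out the loess step, so they did not move all genes alike. With median centring Adipor2 went from -0.18 to -0.40, while Stat5a went from -0.0013 to 0.066. Relative to the median of all genes in the same setting, Adipor1, Adipor2, Stat5b and Cish lay below it in all 9 and Stat5a above it in all 9. Prlr lay above it in 8, and Ghr and Socs2 in 7 each. In that measure Cish ran from -0.17 to -0.16, Adipor2 from -0.29 to -0.10, Stat5b from -0.18 to -0.084, Stat5a from 0.00088 to 0.17 and Prlr from -0.021 to 0.067. The 9 settings are not 9 separate checks. Median centring and spike-in scaling gave each gene the same value in that measure. Changing the brightness filter left each gene's log2 ratio as it was, and so did averaging over probes for genes with 1 measured probe.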

How the data were processed

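Agilent Feature Extraction 11.0.1.1 made both array files, per the submitters' processing notes and the file headers. Per the file headers, the deposited intensity was a median over the pixels of each spot and channel, not normalized, given with its local background. A further, processed signal had its background removed and its dyes balanced by that software. Deposited log ratios were log10 values, Cy5 over Cy3, and each deposited p-value came from the software's model of single spots. The value table of the whole series equalled log10 of the processed signals within 5e-08, with medians of 0.0050 and 0.0083.

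Here, limma 3.58.1 in R 4.3.3 corrected background (normexp, offset 50) and normalized each array by loess, leaving 1639 control spots at weight 0 and dropping them with 3 non-uniform spots; 0 spots were saturated. Ratios were turned to ASX over control and spots of a probe averaged. A probe passed when most of its spots were well above background for each RNA on each array (73.1% of probes). Levels were scaled between arrays by Aquantile. Accessions were named through a RefSeq table of GRCm38.p6, which gave 23372 probes 1 symbol, 17799 none and 0 several. The steps were tested on simulated data. The members and gene lists were chosen with earlier results of these data known. The 9 members and all their probes are named; of each other list, the 2 measured genes of largest mean size with 1 sign on both arrays, and any gene past 1.5-fold. Genes named beside these were chosen after their values were seen. With 2 arrays of 1 RNA pair, no genes of like pattern were sought.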

Additional observations from a re-analysis of the deposited data

How the results depend on the processing

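The counts of members at least 1.5-fold higher and lower were 0 and 0 under all settings run, single arrays and a 1.2-fold threshold included. The median of the measured members was -0.19 with median centring and -0.39 with spike-in scaling, where the median of all genes was -0.10 and -0.31, and leaving out each array in turn gave -0.030 to 0.00074. Of 86 single-gene values under an alternative, 32 could not move by more than the SD between arrays by construction (an array left out, or a brightness filter that keeps the same probe). Of the other 54, 33 moved by less than that SD and 21 by more, 6 of them for Ghr and 4 for Cish, whose SDs were 0.00024 and 0.0092. The 33 include further values that could not move. These are averages over probes for genes with 1 measured probe, and Lepr under a looser brightness filter. The 33 are therefore not a measure of stability. The 15 higher and 5 lower among all genes were 71 and 12 from the scanner's log ratios, 12 and 12 after median centring, 4 and 36 with spike-in scaling, 28 and 7 with an offset of 16 and 12 and 5 without background correction; the cause was not tested. The values of Lepr without a brightness filter under other normalizations were added after seeing the data. Each array holds both RNAs, so each log2 ratio is a paired comparison within an array. No paired test was possible because the arrays are 1 replicate. The number of arrays limits the precision.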

Other observations

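On array 2, the 2 dim probes among the members were those whose ratios differed most from the log ratios of the scanner software. For the dim Stat5b probe, the log2 ratio on array 2 was -0.43 here and -1.99 by the log ratio in the authors' deposited table, where its software p-value was 0.013. For Lepr, the median over spots on array 2 was 0.12 here and 0.49 in the authors' deposited table, where 1 of the 10 spots had a software p-value under 0.05, 0.016. In the authors' deposited table none of the other 12 member probes had a software p-value under 0.05 on either array. Without a brightness filter the Lepr mean ran from 0.011 with spike-in scaling to 0.23 with the scanner's log ratios.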
